A study of Mus musculus with 9 samples.

Results

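Antioxidant defence was followed through 36 genes in the livers of ethanol-fed mice that lack the NADPH oxidase subunit p47phox in myeloid cells. The genes are the transcription factor NRF2 (gene *Nfe2l2*), its inhibitor KEAP1, and enzymes of glutathione, thioredoxin, NADPH, superoxide, peroxide, quinone and heme metabolism. They were chosen by name, and each name matched exactly 1 of the 55401 gene rows of the expression table. The rule used names and no measured value, though the members were chosen with earlier results of these data known.

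The livers came from 4 ethanol-fed *Ncf1* Lyz-/- mice and 5 ethanol-fed WT mice, all labelled C57BL/6, female and aged 10 to 12 weeks. The study's methods place the line with LoxP sites on C57BL/6J. *Ncf1* encodes p47phox, which phagocytes need to make superoxide. Both groups carried *Ncf1* alleles with LoxP sites. Only the *Ncf1* Lyz-/- mice also carried Lyz-Cre, which acts in neutrophils, macrophages and other myeloid cells, and the WT mice were their littermates without Cre. All mice had 5 days of control liquid diet, 10 days of diet with 5% ethanol and 1 gavage of 5 g ethanol per kg, and livers were taken 9 hours later. Livers without ethanol, and so the effect of ethanol itself, were not analysed here. RNA came from whole liver, in which most cells are not targets of Lyz-Cre, and in such bulk RNA fewer cells of a type cannot be told apart from less RNA per cell.

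NRF2 is held in the cytoplasm by KEAP1, which hands it to a ubiquitin ligase for destruction. Oxidants and electrophiles modify cysteines of KEAP1, NRF2 then escapes to the nucleus, pairs with a small MAF protein and binds the antioxidant response element in the promoters or enhancers of its targets. The targets replenish glutathione and thioredoxin, supply NADPH, reduce quinones and break down heme. Much of this control lies in NRF2 protein, so the *Nfe2l2* transcript is not a readout of NRF2 activity. In liver the metabolism of ethanol by CYP2E1 and the oxidative burst of phagocytes are both known sources of reactive oxygen.

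The core of the antioxidant response element reads TGACNNNGC. It was searched on both strands in the window that starts 250 bases before and ends 50 bases after the gene's annotated start, in RefSeq promoter sequences of GRCm38.p6. Such a sequence was found for 31 of the 36 genes, and 8 of them held the core (25.8%), against 13.99% of all 27025 genes with a promoter sequence. *Gclc*, *Gsr*, *Hmox1*, *Prdx6* and *Sod3* had no such sequence and were not searched. The search does not cover distal elements, and a match is not a measured site. The 8 stretches show where matches to the core occur near the start of single members. Each stretch has 29 bases, 5′ to 3′ along the strand that reads the core, with the core in capitals. Counted from the RefSeq start that sets each window, those of *Pgd* and *Srxn1* have the core after the start, the others before it. In the GENCODE M21 annotation this start lies inside the gene, by 25255 bases for *Txnrd1*, 689 for *Pgd* and 314 for *G6pdx*, and it lies within 55 bases of the annotated gene start for the other genes.
*Nfe2l2*, chr2:75704885-75704913, minus strand: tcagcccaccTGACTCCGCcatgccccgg
*Gclm*, chr3:122245413-122245441, minus strand: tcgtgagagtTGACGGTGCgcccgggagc
*Txnrd1*, chr10:82859104-82859132, minus strand: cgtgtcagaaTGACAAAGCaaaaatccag
*Srxn1*, chr2:152105542-152105570, minus strand: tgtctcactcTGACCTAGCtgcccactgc
*G6pdx*, chrX:74428919-74428947, plus strand: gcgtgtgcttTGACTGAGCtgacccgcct
*Pgd*, chr4:149166061-149166089, minus strand: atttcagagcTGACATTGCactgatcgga
*Sod1*, chr16:90220696-90220724, minus strand: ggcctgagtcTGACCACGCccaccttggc
*Prdx1*, chr4:116685456-116685484, minus strand: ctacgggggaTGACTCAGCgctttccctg
The 8 genes are spread over the roles described next: the regulator itself, the modifier subunit of glutathione synthesis, enzymes of the thioredoxin system and of NADPH supply, a superoxide dismutase and a peroxiredoxin.

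Levels are given as FPKM, which scales fragment numbers to transcript length and library size, in livers named as in the table: NKO2, NKO3, NKO4 and NKO5 for *Ncf1* Lyz-/- and WT1, WT2, WT3, WT4 and WT6 for WT. Fold changes are on the scale log2(FPKM + 0.1), *Ncf1* Lyz-/- minus WT, from a limma fit across all genes. The depth recovered from the steps of low values was 18.9 to 20.4 M fragments (M for mega) in *Ncf1* Lyz-/- and 15.5 to 18.9 M in WT, where WT3, WT4 and WT6 had 15.5 to 16.2 M. The targeted gene *Ncf1* was at 0.368, 0.333, 0.440 and 0.885 FPKM in *Ncf1* Lyz-/- livers and at 1.82, 1.16, 0.492, 0.366 and 1.10 FPKM in WT livers (a log2 fold change of −0.74, limma adjusted p = 0.890). The groups overlapped in it, so at whole-liver level *Ncf1* did not mark every library's genotype. Hepatocyte markers summed to 52682.5 to 66498 FPKM in *Ncf1* Lyz-/- livers and to 49940 to 61779 FPKM in WT livers, with a median log2 fold change of 0.0090 over the 8 tested. Neutrophil markers were low, at a sum of 4.23 to 23.0 FPKM in *Ncf1* Lyz-/- livers and 6.15 to 12.3 FPKM in WT livers, and 4 of 11 reached the tested level. NKO3 and WT2 stood apart from the other 7 livers: the metallothionein *Mt1* was at 25.6 FPKM in NKO3 and 134 FPKM in WT2, against 618 to 1619 FPKM elsewhere. The hepatocyte urea-cycle gene *Cps1* was at 356 FPKM in NKO3 and 368 FPKM in WT2, against 598 to 703 FPKM elsewhere. Hepatocyte markers did not all go this way. *Fabp1* was at 6770 FPKM in NKO3 and 5695 FPKM in WT2, against 2602 to 4143 FPKM elsewhere. Of the 8 hepatocyte markers, NKO3 was the lowest *Ncf1* Lyz-/- liver for 5 and the highest for 2. The cause was not tested, and members whose direction turned without either library are given with and without it.

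No antioxidant or NRF2 target gene passed the test between ethanol-fed *Ncf1* Lyz-/- and ethanol-fed WT livers. Of the 36, 35 reached the mean of 0.5 FPKM over all livers that the fit required, and *Slc7a11* did not. At an adjusted p under 0.05, 0 of the 35 were called (limma, Benjamini-Hochberg over 12350 genes), and over all tested genes 1 was called (0.0081%). At an unadjusted p under 0.05, 0 members were higher in *Ncf1* Lyz-/- livers (2.17% of all tested genes were) and 1, *Cbr1*, was lower (3.73% of all tested genes were). In 0 members were all *Ncf1* Lyz-/- livers above all WT livers (0.713% of all tested genes), and in 0 below (1.5%). The log2 fold change was positive for 19 and negative for 16, with a median of 0.018, beside 0.0030 over all tested genes. In the 6 libraries of higher depth, all but WT3, WT4 and WT6, the median was −0.13 for the members and −0.11 for all genes, and the part of depth was not tested.

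Most of the intervals were narrow enough to bound the change. The 95% interval of the log2 fold change lay between −1 and 1 for 28 of the 35 genes and between −0.5 and 0.5 for 16. The fold change itself was under 0.3 in size for 31 genes, and the other 4 were *Cbr1*, *Osgin1*, *Gclm* and *Gpx1*. The smallest two-sided p that an exact permutation test can give with 4 against 5 livers is 0.00794, and no member went below 0.05 in it.

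**Figure D1:**
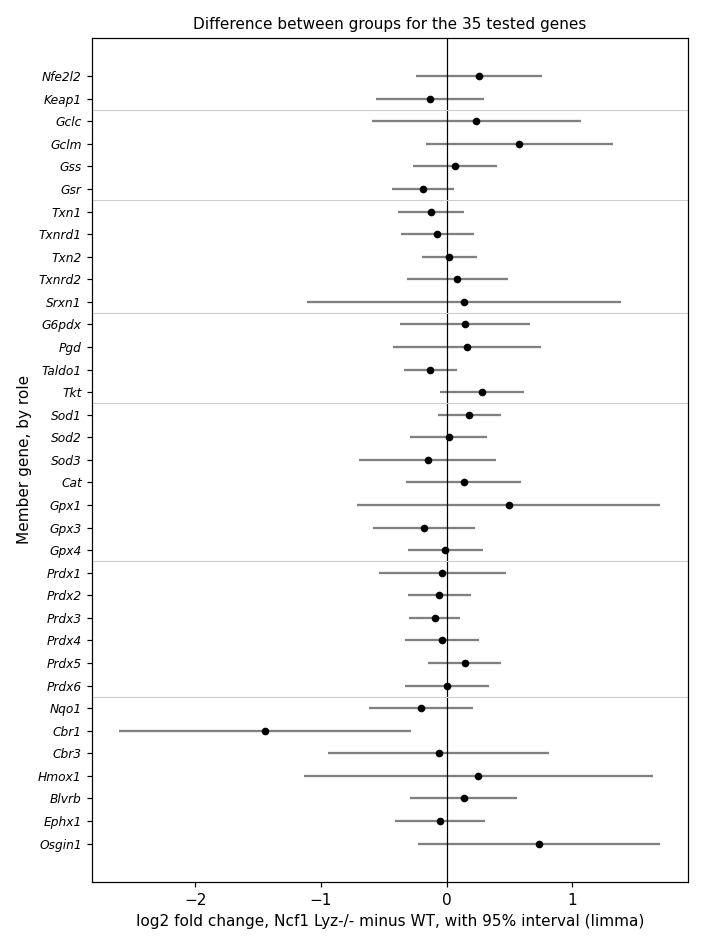
Log2 fold change, *Ncf1* Lyz-/- minus WT, on the scale log2(FPKM + 0.1) (x axis) for the 35 tested genes ordered by role (y axis), with limma's 95% interval as a line. The interval of *Cbr1* is the only one that leaves out 0, and 28 of the 35 intervals lie between −1 and 1.

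The regulators came first. *Nfe2l2* was at 15.6, 25.2, 27.4 and 24.1 FPKM in *Ncf1* Lyz-/- livers and at 22.3, 27.4, 15.4, 16.8 and 15.1 FPKM in WT livers. High and low livers were found in both groups, with NKO4 and WT2 the highest (log2 fold change 0.26, 95% interval −0.24 to 0.76, limma adjusted p = 0.910). *Keap1* averaged 7.75 ± 1.89 FPKM in *Ncf1* Lyz-/- livers, against 8.39 ± 1.54 FPKM in WT livers (SD, 4 and 5 mice), a log2 fold change of −0.13 with an interval of −0.56 to 0.30. Exons of *Keap1* share 6.17% of their 75-base stretches with an antisense gene, *Gm16754*.

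Of the other regulators of NRF2, which include its MAF partners, its competitor BACH1 and subunits of its ubiquitin ligases, 11 of 12 were tested and 0 were called at an adjusted p under 0.05. *Mafk*, a small MAF partner, averaged 4.25 ± 1.30 FPKM in *Ncf1* Lyz-/- livers, against 5.80 ± 0.70 FPKM in WT livers (log2 fold change −0.49, limma adjusted p = 0.842). It was the 1 gene of this list at an unadjusted p under 0.05 (9.09% of those tested, beside 3.73% of all tested genes that were lower at that p). *Mafg*, the next by p, was at 10.1 ± 1.86 FPKM in *Ncf1* Lyz-/- livers, against 9.10 ± 2.08 FPKM in WT livers. *Rxra*, a nuclear receptor that can bind and inhibit NRF2, was at 56.6 ± 2.87 FPKM in *Ncf1* Lyz-/- livers, against 60.7 ± 8.47 FPKM in WT livers.

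Glutathione is made from glutamate, cysteine and glycine. *Slc7a11* encodes the transporter that brings in cystine, and it was close to absent: the highest value in *Ncf1* Lyz-/- livers was 0.0615 FPKM (NKO4), with the other 3 at 0.00142 to 0.00867 FPKM, and WT livers lay between 0.0001, the value the table gives an absent gene, and 0.0354 FPKM. In these libraries 1 fragment is worth 0.0491 to 0.0647 FPKM on a transcript of 1 kilobase and less on a longer one. How many fragments the *Slc7a11* values stand for is not known, so no difference in *Slc7a11* was read from them.

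Glutamate-cysteine ligase, the rate-limiting enzyme of glutathione synthesis, has a catalytic subunit, *Gclc*, and a modifier subunit, *Gclm*. *Gclc* was at 37.3, 67.0, 27.0 and 35.5 FPKM in *Ncf1* Lyz-/- livers and at 35.7, 62.4, 16.6, 40.3 and 27.9 FPKM in WT livers. Its highest values were those of NKO3 and WT2, 1 in each group, and its log2 fold change of 0.24 (95% interval −0.59 to 1.07, limma adjusted p = 0.950) became −0.020 without NKO3. *Gclm* was at 14.9, 10.1, 11.6 and 16.5 FPKM in *Ncf1* Lyz-/- livers and at 12.1, 8.63, 3.73, 12.0 and 10.5 FPKM in WT livers. NKO3 and WT2, highest for *Gclc*, were among the lower livers of their groups for *Gclm*, while WT3 was the lowest liver for both subunits. The log2 fold change of *Gclm* was 0.58 (95% interval −0.16 to 1.32, limma adjusted p = 0.890), and without WT3, the lowest liver, it was 0.28.

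*Gss*, which adds glycine in the last step of synthesis, averaged 15.3 ± 2.83 FPKM in *Ncf1* Lyz-/- livers, against 14.4 ± 1.56 FPKM in WT livers (log2 fold change 0.069). *Gsr*, the reductase that recycles oxidised glutathione with NADPH, was at 15.6, 18.3, 14.2 and 14.5 FPKM in *Ncf1* Lyz-/- livers and at 16.3, 18.7, 17.9, 19.8 and 16.5 FPKM in WT livers. All *Ncf1* Lyz-/- livers but NKO3 lay below all WT livers. The log2 fold change of *Gsr* was −0.19 (95% interval −0.44 to 0.060, limma adjusted p = 0.890) and −0.27 without NKO3 (limma adjusted p = 0.775). *Gss* overlaps *Acss2* on the opposite strand, and 7.77% of its 75-base stretches occur in other genes.

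The thioredoxin system reduces protein disulfides and peroxiredoxins in the cytosol (*Txn1*, *Txnrd1*) and in mitochondria (*Txn2*, *Txnrd2*). *Txn1* was at 116, 150, 106 and 127 FPKM in *Ncf1* Lyz-/- livers and at 141, 149, 121, 133 and 133 FPKM in WT livers (a log2 fold change of −0.13, limma adjusted p = 0.918). *Txnrd1*, an NRF2 target, was at 17.3, 18.1, 15.0 and 18.3 FPKM in *Ncf1* Lyz-/- livers and at 16.3, 14.7, 19.9, 21.04 and 19.0 FPKM in WT livers. The groups overlapped in both, and the 95% interval of *Txnrd1* was −0.36 to 0.21 around −0.074. In the mitochondrial pair the means lay within 1 SD of each other: *Txn2* averaged 19.9 ± 1.94 FPKM in *Ncf1* Lyz-/- livers, against 19.5 ± 0.84 FPKM in WT livers, while *Txnrd2* averaged 6.99 ± 1.64 FPKM in *Ncf1* Lyz-/- livers, against 6.54 ± 1.18 FPKM in WT livers. For *Txnrd2* the log2 fold change was 0.085 with all livers and −0.063 without NKO3.

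Sulfiredoxin, *Srxn1*, restores overoxidised peroxiredoxins and is among the most inducible NRF2 targets. It was at 48.9, 22.4, 43.1 and 40.4 FPKM in *Ncf1* Lyz-/- livers and at 54.2, 7.50, 41.0, 46.4 and 56.6 FPKM in WT livers. Apart from NKO3 and WT2, the lowest liver of each group, all livers lay between 40.4 and 56.6 FPKM. The direction of the *Srxn1* difference rested on WT2: the log2 fold change was 0.14 with all livers (95% interval −1.11 to 1.39, limma adjusted p = 0.982) and −0.40 without WT2.

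Reductases of both systems draw on NADPH, which the pentose phosphate pathway supplies. *G6pdx*, its first and rate-limiting enzyme, was low at 1.63 ± 0.39 FPKM in *Ncf1* Lyz-/- livers, against 1.48 ± 0.39 FPKM in WT livers. *Pgd*, the second NADPH-forming enzyme of the pathway, averaged 8.12 ± 2.92 FPKM in *Ncf1* Lyz-/- livers, against 7.19 ± 2.44 FPKM in WT livers. The log2 fold changes were 0.15 for *G6pdx* and 0.17 for *Pgd*, both well inside their intervals of −0.37 to 0.66 and −0.42 to 0.75. Part of *G6pdx* (10.6% of its 75-base stretches) is shared with other genes, mostly with *Ikbkg* on the opposite strand.

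Transketolase, *Tkt*, and transaldolase, *Taldo1*, link the pathway to glycolysis. *Tkt* was at 19.2, 22.7, 21.6 and 20.5 FPKM in *Ncf1* Lyz-/- livers and at 17.3, 22.9, 13.3, 17.9 and 16.0 FPKM in WT livers. All WT livers but WT2 lay below all *Ncf1* Lyz-/- livers, and the log2 fold change was 0.28 with all livers (95% interval −0.049 to 0.62, limma adjusted p = 0.890) and 0.39 without WT2 (limma adjusted p = 0.419). *Taldo1* was at 28.2, 28.5, 25.4 and 26.0 FPKM in *Ncf1* Lyz-/- livers and at 32.1, 31.6, 27.4, 28.2 and 28.6 FPKM in WT livers. Its standard deviation within groups was the smallest of all tested members, with a log2 fold change of −0.13 and an interval of −0.34 to 0.081.

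Superoxide is turned into hydrogen peroxide by the superoxide dismutases of the cytosol (*Sod1*), the mitochondria (*Sod2*) and the extracellular space (*Sod3*). *Sod1* was at 145, 183, 146 and 145 FPKM in *Ncf1* Lyz-/- livers and at 130, 161, 131, 129 and 131 FPKM in WT livers. Within each group all livers but 1 were nearly alike, and the exceptions were NKO3 and WT2. Without this pair the remaining *Ncf1* Lyz-/- livers were all above the remaining WT livers (log2 fold change 0.16, limma adjusted p = 0.528), and with all livers the log2 fold change was 0.18 (95% interval −0.069 to 0.43, limma adjusted p = 0.894). *Sod2* averaged 12.2 ± 1.84 FPKM in *Ncf1* Lyz-/- livers, against 12.0 ± 1.49 FPKM in WT livers, while *Sod3* averaged 5.60 ± 1.76 FPKM in *Ncf1* Lyz-/- livers, against 6.25 ± 1.94 FPKM in WT livers. Neither differed beyond its spread. The sign of *Sod2* turned without NKO3 (a log2 fold change of 0.018 with all livers and −0.033 without it), and that of *Sod3* without WT2 (−0.15 with all livers and 0.0072 without it). For *Sod2*, 16.2% of the 75-base stretches occur elsewhere.

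Hydrogen peroxide is broken down by catalase in peroxisomes and by glutathione peroxidases. *Cat* averaged 497 ± 167 FPKM in *Ncf1* Lyz-/- livers, against 441 ± 73.1 FPKM in WT livers, with 742 FPKM in NKO3 and 543 FPKM in WT2 as the highest values. Its log2 fold change was 0.14 with all livers and −0.073 without NKO3. *Gpx1*, the selenoenzyme that is the main cytosolic glutathione peroxidase, was at 874, 1355, 866 and 610 FPKM in *Ncf1* Lyz-/- livers and at 153, 1247, 835, 889 and 706 FPKM in WT livers. WT1 lay far below the other livers, and the difference rested on it: the log2 fold change of *Gpx1* was 0.49 (95% interval −0.71 to 1.70, limma adjusted p = 0.932) and −0.016 without WT1. The other 2 glutathione peroxidases among the 36 genes did not have their lowest value in WT1. *Gpx3*, the secreted enzyme, averaged 4.58 ± 0.76 FPKM in *Ncf1* Lyz-/- livers, against 5.24 ± 1.02 FPKM in WT livers, and was highest in WT1 at 6.22 FPKM. *Gpx4*, which reduces lipid peroxides in membranes, was at 145 ± 9.17 FPKM in *Ncf1* Lyz-/- livers, against 147 ± 27.9 FPKM in WT livers, and WT1 had 138 FPKM. Its log2 fold change was −0.011 with all livers, 0.096 without WT2 and 0.0029 without NKO3. The level of *Gpx4* is uncertain, since 29.8% of its 75-base stretches also occur in *Gpx4-ps2*.

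Peroxiredoxins reduce peroxides with thioredoxin or glutathione, and their 6 genes were expressed at 17.2 FPKM or more in every liver. *Prdx5*, found in mitochondria, peroxisomes and cytosol, was at 65.0, 60.6, 61.9 and 47.7 FPKM in *Ncf1* Lyz-/- livers and at 52.9, 51.8, 48.1, 47.8 and 65.3 FPKM in WT livers. *Prdx3*, the mitochondrial enzyme, was at 67.2, 59.7, 68.6 and 75.3 FPKM in *Ncf1* Lyz-/- livers and at 71.3, 69.6, 72.2, 71.2 and 76.2 FPKM in WT livers. The groups overlapped in both, with log2 fold changes of 0.14 for *Prdx5* and −0.095 for *Prdx3*. *Prdx1*, a cytosolic NRF2 target, averaged 204 ± 61.2 FPKM in *Ncf1* Lyz-/- livers, against 204 ± 36.2 FPKM in WT livers. *Prdx6*, which uses glutathione, averaged 65.1 ± 9.67 FPKM in *Ncf1* Lyz-/- livers, against 65.1 ± 11.4 FPKM in WT livers. To 3 digits, the means of *Prdx1* and *Prdx6* were the same in both groups. *Prdx1* had a log2 fold change of −0.034 with all livers and 0.038 without WT2, and *Prdx6* one of 0.0050 with all livers and −0.092 without NKO3. *Prdx2*, abundant in red blood cells, was at 19.5 ± 2.29 FPKM in *Ncf1* Lyz-/- livers, against 20.2 ± 1.78 FPKM in WT livers. *Prdx4*, of the endoplasmic reticulum, was at 19.8 ± 2.53 FPKM in *Ncf1* Lyz-/- livers, against 20.4 ± 2.74 FPKM in WT livers. Erythroid markers summed to 481 to 2086 FPKM in *Ncf1* Lyz-/- livers, against 999 to 1925 FPKM in WT livers, and all 6 tested of 9 markers had a negative log2 fold change (median −0.85); their part in *Prdx2* was not tested. *Prdx5* shares 13.9% of its 75-base stretches with *Trmt112* on the opposite strand. *Prdx2* shares 8.61% with 3 other genes, of which *Junb*, on the opposite strand, accounts for 3.28%.

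The genes of carbonyl, quinone, heme and epoxide metabolism held the largest fold change in each direction, those of *Cbr1* and *Osgin1*. *Cbr1* encodes the cytosolic carbonyl reductase, which uses NADPH to reduce quinones and lipid-derived carbonyls. It was at 7.20, 9.24, 13.8 and 6.10 FPKM in *Ncf1* Lyz-/- livers and at 43.2, 6.98, 46.5, 28.8 and 18.6 FPKM in WT livers. Every WT liver but WT2 was above every *Ncf1* Lyz-/- liver. The mean was 9.08 ± 3.40 FPKM in *Ncf1* Lyz-/- livers, against 28.8 ± 16.6 FPKM in WT livers, and their log2 fold change was −1.45 (standard error 0.52, 95% interval −2.60 to −0.29). The unadjusted p from limma was 0.0196, the adjusted p was 0.839, and the two-sided exact permutation test gave p = 0.0635, so *Cbr1* did not pass the test. Without WT2 the log2 fold change was −1.88 and the adjusted p from limma 0.303, while it was −1.91 without NKO3 and WT2 and −0.9997 in the 6 libraries of higher depth. *Cbr1* lies at chr16:93605853-93610505 on GRCm38 and shares no 75-base stretch with another annotated gene.

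Its neighbour and paralog *Cbr3*, at chr16:93683215-93690990, differed from it in both level and pattern. *Cbr3* averaged 1.85 ± 0.90 FPKM in *Ncf1* Lyz-/- livers, against 1.91 ± 0.82 FPKM in WT livers (log2 fold change −0.064, 95% interval −0.94 to 0.81). Without NKO3 the log2 fold change of *Cbr3* was 0.23. WT3, the highest liver for *Cbr1*, was at 0.965 FPKM, among the lowest for *Cbr3*.

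*Osgin1*, an oxidative stress-induced growth inhibitor, had the largest positive difference. It was at 11.6, 17.7, 13.6 and 28.8 FPKM in *Ncf1* Lyz-/- livers and at 7.47, 29.0, 7.68, 6.83 and 9.17 FPKM in WT livers. As for *Cbr1*, WT2 alone lay on the other side: the remaining WT livers were all below the *Ncf1* Lyz-/- livers. The log2 fold change was 0.73 with all livers (95% interval −0.23 to 1.70, limma adjusted p = 0.890), 1.11 without WT2 (limma adjusted p = 0.347) and 0.19 in the 6 libraries of higher depth, of which only WT1 and WT2 are WT.

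*Nqo1*, the quinone reductase often used as a readout of NRF2, was at 12.4, 8.25, 9.08 and 10.8 FPKM in *Ncf1* Lyz-/- livers and at 10.3, 10.2, 10.2, 17.1 and 11.0 FPKM in WT livers. All livers but WT4 lay between 8.25 and 12.4 FPKM. The log2 fold change of *Nqo1* was −0.20 (95% interval −0.62 to 0.21, limma adjusted p = 0.918) and −0.060 without WT4. *Ephx1*, the microsomal epoxide hydrolase, was abundant, at 359 ± 42.7 FPKM in *Ncf1* Lyz-/- livers, against 376 ± 72.2 FPKM in WT livers. Its log2 fold change was −0.050 with all livers and 0.019 without WT2.

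Heme oxygenase 1, *Hmox1*, breaks heme down to biliverdin, iron and carbon monoxide. It was at 82.7, 14.5, 64.4 and 143 FPKM in *Ncf1* Lyz-/- livers and at 45.0, 39.4, 24.2, 61.9 and 100 FPKM in WT livers. The values within a single group differed by more than the group means did. The log2 fold change of *Hmox1* was 0.25 (95% interval −1.13 to 1.64, limma adjusted p = 0.975), became 0.92 without NKO3 (limma adjusted p = 0.803) and turned to −0.18 without NKO5. Kupffer cells, which clear red blood cells, also express *Hmox1*. Markers of Kupffer cells and macrophages summed to 174 to 351 FPKM in *Ncf1* Lyz-/- livers, against 154 to 484 FPKM in WT livers (12 of 12 tested, median log2 fold change −0.098). NKO3, the lowest liver for *Hmox1*, had the highest such sum of its group, and the part of these cells in *Hmox1* was not tested. The lysozyme gene *Lyz2* is 1 of these 12 markers. It averaged 23.8 ± 6.82 FPKM in *Ncf1* Lyz-/- livers, against 45.0 ± 26.1 FPKM in WT livers (log2 fold change −0.81, limma adjusted p = 0.842). It was the 1 marker lower at an unadjusted p under 0.05 (8.33%, beside 3.73% of all tested genes). The part of the Lyz-Cre allele in *Lyz2* was not tested. *Blvrb*, a biliverdin reductase that is abundant in red blood cells, averaged 35.5 ± 7.27 FPKM in *Ncf1* Lyz-/- livers, against 32.4 ± 7.65 FPKM in WT livers.

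**Figure D2:**
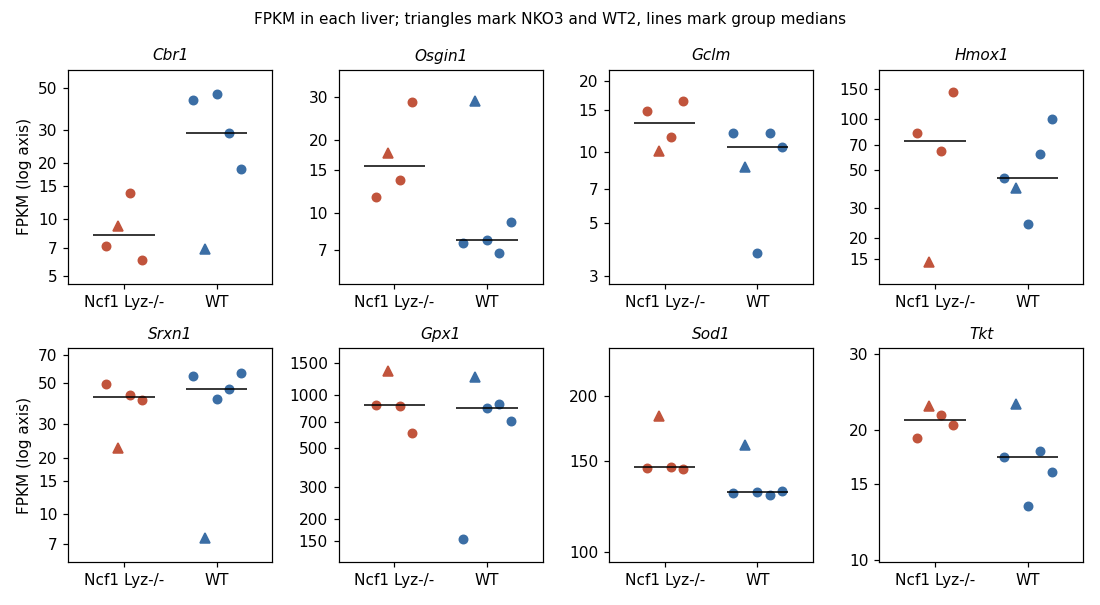
FPKM on a log axis (y) of 8 genes in each liver, *Ncf1* Lyz-/- (red, left, 4 livers) and WT (blue, right, 5 livers). Lines are group medians and triangles mark NKO3 and WT2. In *Cbr1* the WT2 triangle sits among the *Ncf1* Lyz-/- livers at 6.98 FPKM, and in *Gpx1* WT1 stands alone at 153 FPKM.

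Across genes, NKO3 and WT2 shared many high values. NKO3 and WT2 were the 2 highest livers for 14 of the 35 tested members (40.0%), and for 19.0% of all tested genes. The 14 were *Keap1*, *Gclc*, *Txn1*, *Txnrd2*, *G6pdx*, *Tkt*, *Sod1*, *Sod3*, *Cat*, *Gpx1*, *Prdx1*, *Prdx2*, *Prdx6* and *Blvrb*, which span every role. Other pairs of livers were the 2 highest for at most 2 members each. *Srxn1* alone had its 2 lowest values in NKO3 and WT2. Summed markers of macrophages (351 FPKM in NKO3 and 484 FPKM in WT2), sinusoidal endothelial cells (69.3 and 75.2 FPKM in NKO3 and WT2), stellate cells (58.6 and 71.6 FPKM) and bile duct cells (32.6 and 35.9 FPKM) were also highest in NKO3 among *Ncf1* Lyz-/- livers and in WT2 among WT livers, and their part in this pattern was not tested. Single markers did not all follow these sums: NKO3 was the highest *Ncf1* Lyz-/- liver and WT2 the highest WT liver for 9 of 12 macrophage, 4 of 8 endothelial, 4 of 9 stellate cell and 2 of 6 bile duct markers. *Spp1* alone made up 28.6 FPKM of the bile duct sum in NKO3 and 33.1 FPKM in WT2, and *Dcn* 35.7 and 44.2 FPKM of the stellate cell sum in NKO3 and WT2. *Lyz2* made up 33.4 FPKM of the macrophage sum in NKO3 and 90.1 FPKM in WT2. The endothelial *Lyve1* (1.45 FPKM) and *Pecam1* (3.12 FPKM) and the stellate cell *Lrat* (2.41 FPKM) were lower in NKO3 than in any other liver. Since 1 of these livers is *Ncf1* Lyz-/- and the other WT, the shared pattern crosses the genotypes.

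**Figure D3:**
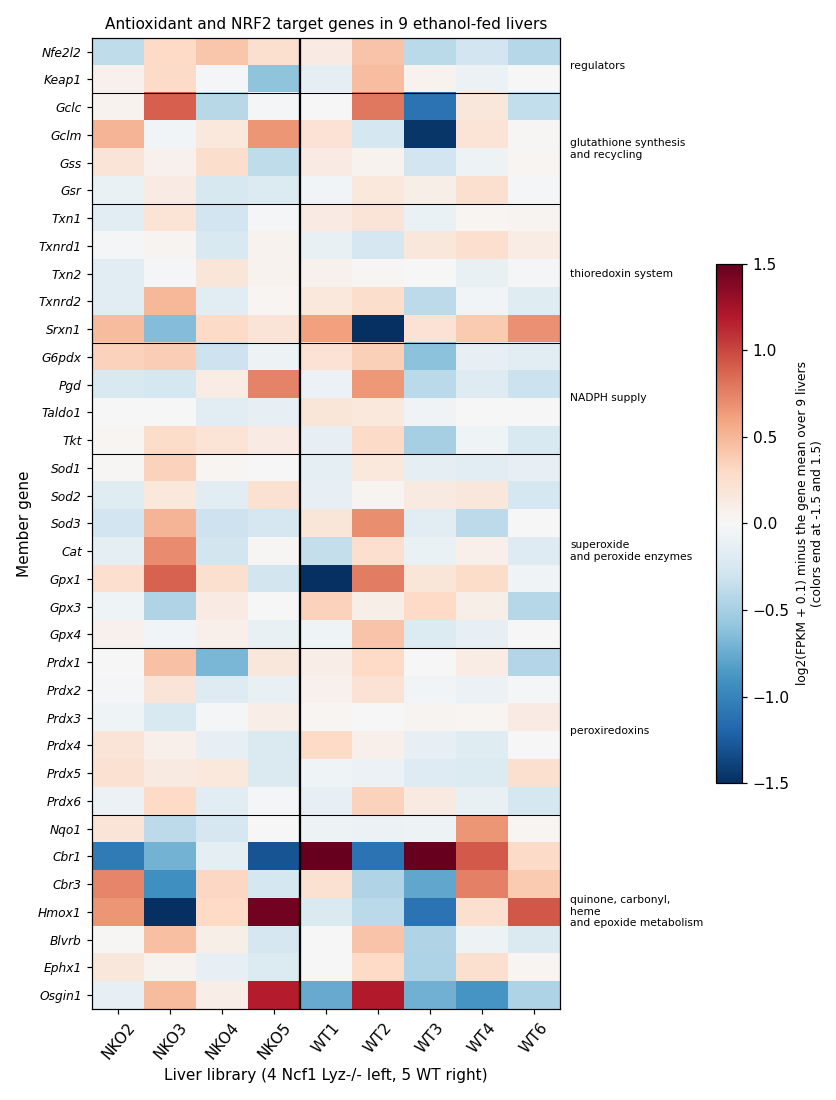
Level of each tested gene (rows, grouped by role) in each liver (columns, 4 *Ncf1* Lyz-/- livers left of the line and 5 WT livers right of it), as log2(FPKM + 0.1) minus the mean of that gene over the 9 livers. Red is above and blue below the mean, and colors end at −1.5 and 1.5. The columns NKO3 and WT2 are red in many rows, and the row of *Cbr1* is blue in all *Ncf1* Lyz-/- livers and in WT2.

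Without WT2, 3 members were higher in *Ncf1* Lyz-/- livers at an unadjusted p under 0.05 (5.4% of all genes then tested) and 1 was lower (4.62%). The same 3, *Osgin1*, *Tkt* and *Sod1*, then had groups that did not overlap (3.27% of all genes), and *Cbr1* was the 1 in the other direction (2.98%). Without both NKO3 and WT2, 2 members were higher (4.26%) and 2, *Cbr1* and *Gsr*, lower (5.18%), while 3 did not overlap upward (4.66%) and 2 downward (5.41%). None passed the adjusted threshold in either case.

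The members differed widely in how steady they were between livers of 1 group. The standard deviation of log2(FPKM + 0.1) within groups was 0.28 in the median over members and 0.30 over all tested genes, and 16 of 35 members were above the median of all tested genes. The 5 members over the 90th percentile of all tested genes were *Hmox1* (96.6), *Srxn1* (95.5), *Gpx1* (95.02), *Cbr1* (94.5) and *Osgin1* (91.7). Their highest liver exceeded their lowest by 9.87-fold for *Hmox1*, 8.86-fold for *Gpx1*, 7.61-fold for *Cbr1*, 7.54-fold for *Srxn1* and 4.24-fold for *Osgin1*. The 5 under the 10th percentile were *Taldo1*, *Prdx3*, *Txn2*, *Gsr* and *Prdx2*, with at most 1.40-fold between their livers. Both sets hold NRF2 targets and enzymes of different pathways.

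**Figure D4:**
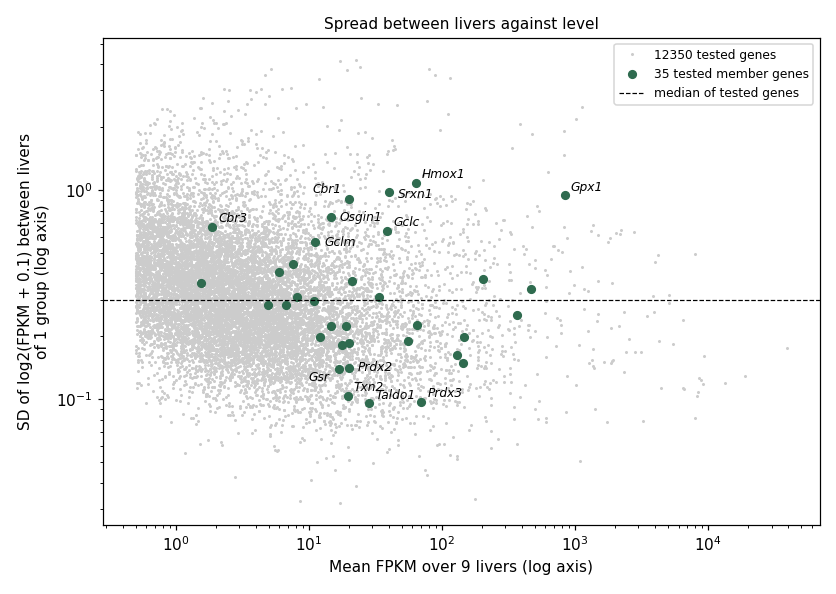
Standard deviation of log2(FPKM + 0.1) between livers of 1 group (y, log axis) against the mean FPKM over the 9 livers (x, log axis) for 12350 tested genes (gray) and the 35 tested members (green). The dashed line is the median of tested genes, 0.30. *Hmox1*, *Srxn1*, *Gpx1* and *Cbr1* lie high for their level, and *Taldo1*, *Prdx3* and *Txn2* lie low.

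Members with the response element core near their start had both signs. Of the 8, 6 had a positive and 2 a negative log2 fold change, with a median of 0.16. The median of the 22 tested members whose window held no core was −0.023, and this contrast was not tested. Over all 12350 tested genes 6235 were positive. In the 6 libraries of higher depth *Nfe2l2* (−0.13), *G6pdx* (−0.20) and *Pgd* (−0.19) turned negative and *Txnrd1* (0.14) turned positive. *Srxn1* was at −0.40 without WT2. *Srxn1* and *Sod1*, which both carry the core, lay at percentiles 95.5 and 11.3 of the spread between livers.

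Other known NRF2 targets were read from the same fit: 34 of 36 were tested, 23 had a positive and 11 a negative log2 fold change (median 0.073), and 0 were called at an adjusted p under 0.05. At an unadjusted p under 0.05, 2 were higher (5.88%, beside 2.17% of all tested genes) and 0 lower (3.73% of all tested genes were). *Cyp2a5*, a cytochrome P450 inducible through NRF2, averaged 962 ± 136 FPKM in *Ncf1* Lyz-/- livers, against 630 ± 124 FPKM in WT livers (log2 fold change 0.62, limma adjusted p = 0.605). *Gsta3*, a glutathione S-transferase, averaged 228 ± 46.4 FPKM in *Ncf1* Lyz-/- livers, against 151 ± 37.3 FPKM in WT livers (log2 fold change 0.60, limma adjusted p = 0.812). *Akr1b8*, an aldo-keto reductase, was the next by p, with 2.23 ± 0.78 FPKM in *Ncf1* Lyz-/- livers, against 2.99 ± 0.18 FPKM in WT livers.

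Of 24 other redox genes, which include the metallothioneins *Mt1* and *Mt2*, all were tested. Of these, 10 had a positive and 14 a negative log2 fold change (median −0.069), and 0 were called at an adjusted p under 0.05. At an unadjusted p under 0.05, 0 were higher (2.17% of all tested genes were) and 1, *Glrx*, was lower (4.17%, beside 3.73% of all tested genes). *Glrx*, the cytosolic glutaredoxin that removes glutathione from proteins, was at 9.45, 6.60, 8.40 and 8.65 FPKM in *Ncf1* Lyz-/- livers and at 9.46, 9.90, 11.2, 13.7 and 10.1 FPKM in WT livers. The groups did not overlap, as in 1.5% of all tested genes in this direction, though NKO2 and WT1 were almost equal. *Glrx* had a log2 fold change of −0.39, with a limma adjusted p of 0.839. *Selenof*, a selenoprotein, averaged 17.7 ± 1.71 FPKM in *Ncf1* Lyz-/- livers, against 19.98 ± 1.23 FPKM in WT livers, while *Glrx5*, a mitochondrial glutaredoxin, averaged 14.7 ± 2.48 FPKM in *Ncf1* Lyz-/- livers, against 16.6 ± 1.26 FPKM in WT livers.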

How the data were processed

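Poly(A) RNA from 9 livers was sequenced as stranded, paired-end libraries. The authors mapped reads with HISAT2 and assembled them with StringTie; versions and genome build are not given in the sources used here, nor whether quantification used strand. The deposited FPKM values were made by the authors. Columns of the authors' own comparison (ratio, its log2, p-value, q-value) were not used. The 9 columns were placed in groups by name; their numbers do not follow the replicate numbers of the labels, and 0 per-sample columns were left unused. The labels give separate mice, and p-values measure only the spread between these samples. Members and gene lists were chosen with earlier results of these data known.

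The 12350 genes that averaged 0.5 FPKM or more entered a limma fit (version 3.58.1, R 4.3.3) of log2(FPKM + 0.1), whose variance followed a trend in mean level; p-values had Benjamini-Hochberg adjustment and calls were made under 0.05. This fold change understates changes of low genes. The procedure was tested on simulated data with noise drawn separately for each gene. Such data hold no pattern shared by NKO3 and WT2, so the simulation does not cover it. Single genes also had a two-sided exact permutation test. As counts were not given, depth was estimated from the smallest FPKM steps of 15169 single-exon genes of at least 200 bases, and no count model was run. Each library gave 1609 to 1750 low values for this estimate, of which 52.9% to 58.6% lay close to half-fragment steps. Coordinates, overlaps and shared 75-base stretches come from GENCODE M21 (GRCm38), promoters from RefSeq GRCm38.p6. Python 3.11.15, pandas 2.3.3 and matplotlib 3.10.9 made tables and figures. Every member is named, and those with the 6 smallest p in each direction or a standing as inducible target are given liver by liver; *Gpx1* was added after its values were seen. Of each other list the 3 smallest p are named. Alternatives were pseudocounts of 0.5 and 1, no filter, a higher filter of 1 FPKM, median-ratio scaling, no trend, array weights, each library left out, the 6 libraries of higher depth, and NKO3 with WT2 left out.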

Additional observations from a re-analysis of the deposited data

Results flagged for a closer look

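In 9 of the 72 groups of livers examined for a single member, 1 liver stood far from the rest of its group. Chance gives about 1 in 20 for independent groups, but the 72 are drawn from the same 9 livers. The share over all tested genes was not computed. WT2 was the highest liver for 25.8% of all tested genes and NKO3 for 20.5%. WT2 was high for *Keap1* at 11.0 FPKM (other WT livers 7.19 to 8.27), for *Pgd* at 11.5 FPKM (5.47 to 6.84), for *Sod1* at 161 FPKM (129 to 131), for *Gpx4* at 196 FPKM (126.1 to 144) and for *Osgin1* at 29.0 FPKM (6.83 to 9.17). NKO3 was high for *Sod1* at 183 FPKM (other *Ncf1* Lyz-/- livers 145 to 146) and for *Sod3* at 8.23 FPKM (4.64 to 4.82). WT4 was high for *Nqo1* at 17.1 FPKM (10.2 to 11.0). NKO4 was high for *Slc7a11* at 0.0615 FPKM (0.00142 to 0.00867), in a gene close to absent in all livers.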

How the results depend on the processing

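No member was called at an adjusted p under 0.05 in any of 18 alternatives, and the smallest adjusted p of a member was 0.268, with array weights. Members higher at an unadjusted p under 0.05 numbered 1 with scaling by median ratios (2.95% of all genes tested in that setting, as in each bracket here), 2 with array weights (5.47%) and 2 without NKO3 and WT2 (4.26%), a setting chosen after seeing the data, and 0 to 3 with 1 library left out (3 without WT2, 5.4%). Members lower at that level numbered 2 with array weights (5.87%), 2 without NKO3 and WT2 (5.18%), 0 in the 6 libraries of higher depth (4.11%) and 0 to 2 with 1 library left out (2 without NKO3, 4.16%, and 0 without NKO5, 2.89%). Groups did not overlap upward for 1 member with median ratios (1.22%), 3 without NKO3 and WT2 (4.66%) and 0 to 3 with 1 left out (3 without WT2, 3.27%), and downward for 1 in the 6 libraries (12.3%), 2 without NKO3 and WT2 (5.41%) and 0 to 1 with 1 left out (1 each without NKO3, 3.47%, NKO5, 2.35%, and WT2, 2.98%). The median log2 fold change of the members was −0.13 in the 6 libraries, where that of all genes was −0.11; the cause was not tested. A sign other than that with all livers was seen in 57 of 630 member values, over 23 members, none above 0.49 in size with all livers, and 12 members kept their sign throughout. In the 6 libraries the log2 fold changes of the other sign were −0.13 for *Nfe2l2*, −0.26 for *Gclc*, −0.051 for *Gss*, 0.14 for *Txnrd1*, −0.026 for *Txn2*, −0.16 for *Txnrd2*, −0.20 for *G6pdx*, −0.19 for *Pgd*, −0.11 for *Prdx6*, 0.076 for *Cbr3* and −0.14 for *Blvrb*. Without NKO3 and WT2 they were −0.16 for *Srxn1*, −0.021 for *Sod2*, 0.11 for *Gpx4*, −0.0042 for *Prdx6* and 0.11 for *Cbr3*. With array weights they were −0.0066 for *Gss*, −0.13 for *Srxn1*, 0.0050 for *Gpx3*, 0.029 for *Gpx4* and 0.072 for *Prdx1*. With 1 library left out in turn, log2 fold changes on both sides of 0 ranged from −0.25 to 0.046 for *Keap1*, from −0.020 to 0.46 for *Gclc*, from −0.0062 to 0.21 for *Gss*, from −0.032 to 0.081 for *Txn2*, from −0.063 to 0.16 for *Txnrd2*, from −0.40 to 0.38 for *Srxn1*, from −0.053 to 0.35 for *Pgd*, from −0.056 to 0.082 for *Sod2*, from −0.35 to 0.0072 for *Sod3*, from −0.073 to 0.25 for *Cat*, from −0.016 to 0.74 for *Gpx1*, from −0.063 to 0.096 for *Gpx4*, from −0.19 to 0.19 for *Prdx1*, from −0.10 to 0.036 for *Prdx4*, from −0.092 to 0.093 for *Prdx6*, from −0.32 to 0.23 for *Cbr3*, from −0.18 to 0.92 for *Hmox1* and from −0.17 to 0.019 for *Ephx1*. No paired analysis was possible because the table's column numbers cannot be tied to the labels' replicate numbers. Depth limits *Slc7a11*.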
